A study of Mus musculus with 2 samples.

Results

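Glycolysis genes and their isozymes were examined for open chromatin in primary mouse CD8 T cells that were naive and resting, that is, not yet activated by antigen. The 33 members were a named list of glucose transporters, glycolytic enzymes, lactate transporters and regulators, and all 33 were found among 21827 protein-coding genes annotated on mm10 in GENCODE M21. DNase-seq reads where the enzyme DNase I cuts, which it does mostly in accessible DNA, so a peak marks open chromatin and not transcription. The data were 2 libraries of 1 group, from male adult B6CASTF1/J mice aged 2 months, the F1 cross of C57BL/6J and CAST/EiJ, with no treatment or mutation in the labels. The libraries are biological replicates 2 and 3, with 1 donor label between them and a biosample label each. Since the labels do not name separate animals, their spread may be technical.

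Glycolysis splits glucose into pyruvate, which lactate dehydrogenase turns into lactate or the pyruvate dehydrogenase complex oxidizes in the mitochondria. Nearly every step is served by several isozymes. Some are made in almost all cells, and others belong to muscle, brain, liver, testis or myeloid cells. Naive T cells are known to burn little glucose at rest and to raise glycolysis strongly after activation. Members were sorted from textbook knowledge into 15 broad isozymes, 9 intermediate isozymes known from certain tissues or induced states yet found in several, and 9 isozymes restricted to particular tissues. The sorting was made with earlier results of these data known, so it is not independent of them.

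The authors' stricter peak list held 38223 peaks in replicate 2 and 17061 in replicate 3, and the footprint lists held 146244 and 29967 intervals in the same order. A footprint is a short stretch protected from cutting inside open chromatin. The depth behind the lists is not given, and the signal values rose in steps 6.06 times as wide in replicate 3 as in replicate 2. A missing peak, above all in replicate 3, therefore does not show a closed site. Of 10 T cell marker genes, 7 had a promoter peak in replicate 2, against 50.5% of all protein-coding genes. In replicate 3 it was 1, Cd8b1, against 40.9%. All 10 T cell marker loci held a peak in replicate 2, against 67.5% of all genes. Of these loci, 4 held a region in both libraries, against 56.3% of all genes. No promoter peak was called in either library for 4 B cell and 4 myeloid markers, a state found for 49.5% of all genes. Of 4 erythroid markers Epor alone had a promoter peak, in replicate 2. The loci of Ms4a1 (B cell), Csf1r, Lyz2 and Adgre1 (myeloid), and Gata1 and Hbb-bs (erythroid) held no stricter peak at all, while 3 B cell, 1 myeloid and 2 erythroid marker loci held one in replicate 2. A region in both libraries was present at 2 of 4 B cell, 1 of 4 myeloid and 2 of 4 erythroid marker loci, shares no lower than that of the T cell loci for B cell and erythroid markers. The part of other cells in the results was not tested.

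Promoters of the broad isozymes were open and those of the restricted isozymes were, with 1 exception, without a peak. A promoter was the window of 1 kb either side of any protein-coding start site. In both libraries 21 of the 33 members had a stricter promoter peak (63.6%), against 40.9% of all protein-coding genes. In replicate 2 it was 24 (72.7%), against 50.5%, and in replicate 3 it was 21, against 40.9%. By class the count was 13 of 15 broad isozymes (86.7%), 7 of 9 intermediate isozymes (77.8%) and 1 of 9 restricted isozymes (11.1%). The other 2 broad isozymes, Gpi1 and Tpi1, and the intermediate Slc2a3 had a peak in replicate 2 alone, a state found for 9.63% of all genes. Slc16a3 and 8 restricted isozymes had none in either library, a state found for 49.5% of all genes. With intermediate isozymes counted as restricted, 8 of the pooled class (44.4%) had a promoter peak in both libraries. With 1 group, and members and classes chosen by hand, no test was made, and the counts are a description.

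**Figure D1:**
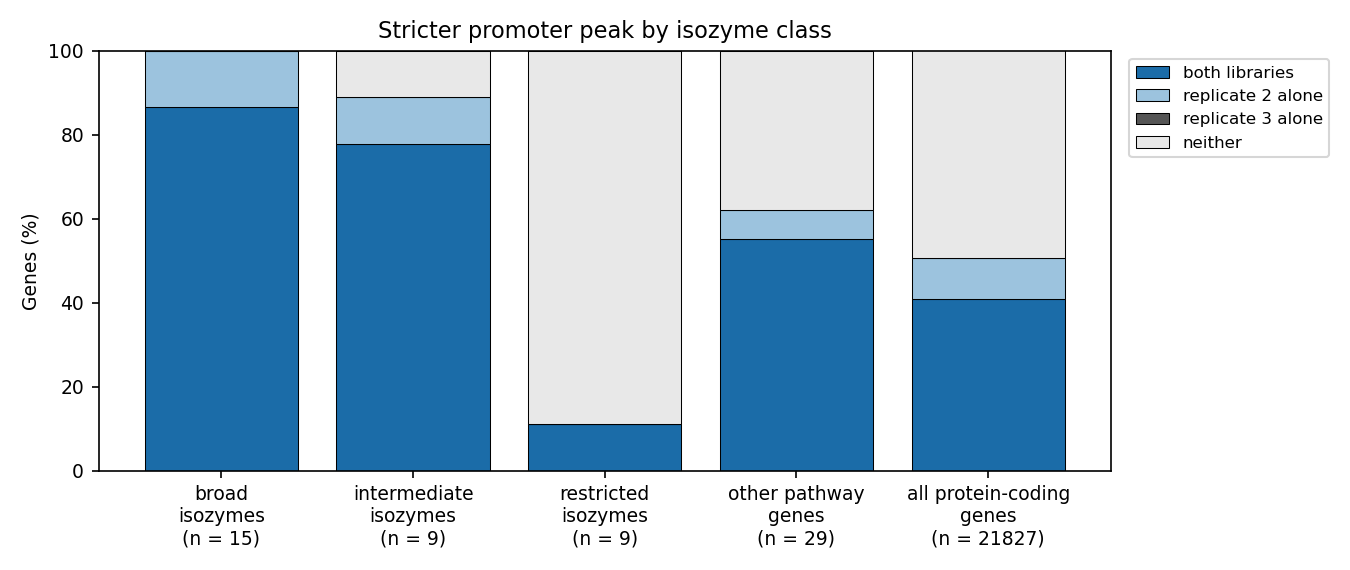
Share of genes (vertical axis, percent) with a stricter promoter peak in both libraries, in replicate 2 alone, in replicate 3 alone or in neither, for the 3 isozyme classes, the other pathway genes and all protein-coding genes. The bar for both libraries reaches 86.7% in broad and 11.1% in restricted isozymes, against 40.9% in all genes.

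**Figure D2:**
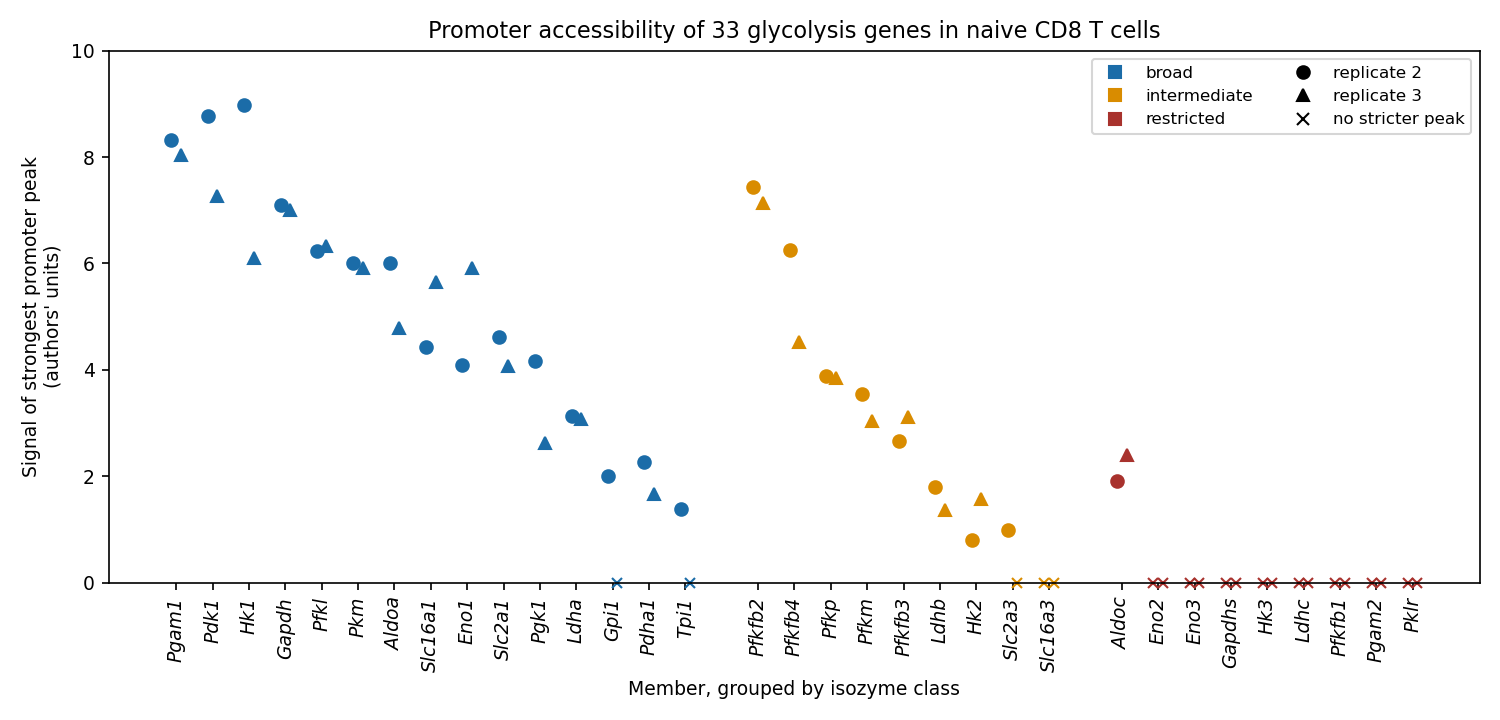
Signal of the strongest stricter promoter peak (vertical axis, authors' units) of each of the 33 members in replicate 2 (circles) and replicate 3 (triangles), with crosses at 0 where no stricter peak was called. Of the restricted isozymes, only Aldoc has points above 0, at 1.91 and 2.39.

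Signals below are the authors' values for the strongest peak of a promoter. A percentile places that value among the genes with a promoter peak in the same library, 11019 in replicate 2 and 8924 in replicate 3, and their medians were 3.75 and 4.65.

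Glucose entry differed between its transporters. Slc2a1, which encodes the widely made transporter GLUT1, stood at 4.62 in replicate 2 and at 4.07 in replicate 3. Its peak at chr4:119108641-119108880 covered the start site and held 7 footprints in replicate 2. Slc2a3 encodes GLUT3, the high-affinity transporter of neurons that T cells also use. Its promoter peak was weak, at 0.992 in replicate 2 and absent from both lists of replicate 3. The strongest open sites of the Slc2a3 locus lay 68206 and 68706 bp upstream of the annotated coding start site, between genes, at chr6:122810721-122811180 and chr6:122811341-122811560. The nearer had 5.75 in replicate 2 and was in the permissive list of replicate 3, and the farther had 5.23 in replicate 2 and 4.43 in replicate 3. The coding start site of Slc2a3 lies 58895 bp inside the gene record, and both sites lay in the 10 kb flank of the record's 5′ end. A replicate 2 peak of 0.828 covered that end. Across its locus of 93.8 kb Slc2a3 had 10 regions, the most after the 11 of Eno3, and 6 of them had a higher signal than the promoter.

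The hexokinases trap glucose in the cell by phosphorylation. Hk1, the housekeeping hexokinase, had the highest promoter signal of all members in replicate 2, 8.98 (percentile 90.8), and 6.10 in replicate 3 (percentile 68.6). Hk2, the insulin-sensitive and inducible form, stood near the bottom of both libraries at 0.791 (percentile 7.04) and 1.58 (percentile 3.75). The Hk2 peaks did not overlap: replicate 2 had chr6:82773526-82773747 and replicate 3 had chr6:82774599-82774709, so the gene counted as open in both libraries without a shared site. Hk3, the myeloid form, had no promoter peak and a single intronic peak of 1.08 in replicate 2 alone. Gpi1, glucose-6-phosphate isomerase, had a promoter peak of 2.01 in replicate 2, and for replicate 3 only the permissive list held a peak, of 1.40. A stronger site lay 3845 bp upstream of Gpi1 between genes, with 7.21 in replicate 2 and 5.24 in replicate 3.

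Phosphofructokinase commits sugar to glycolysis and has 3 isozyme genes, and each of them had a promoter peak in both libraries. Pfkl, the liver-type subunit found in most tissues, had 6.24 and 6.32 in replicates 2 and 3. Pfkp, the platelet type, had 3.89 and 3.84. Pfkm, the muscle type, had 3.55 and 3.03, but that peak at chr15:98093221-98093640 lay 787 bp inside Pfkm and closest to the start site of Senp1, a neighbour read on the opposite strand. The other Pfkm start, at position 98108466, had a peak of 0.828 in replicate 2 and 1 of the permissive list in replicate 3. Pfkm therefore left the count when the window was 500 bp.

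Fructose-2,6-bisphosphate, the strongest known activator of phosphofructokinase, is made and removed by the Pfkfb enzymes. Pfkfb2, known as the heart form, had the highest promoter of the family at 7.44 and 7.14 in replicates 2 and 3. Pfkfb4, known from testis and from hypoxia, had 6.25 and 4.52. Pfkfb3, the inducible form, had 2.67 and 3.12 and was open at start sites on both sides of an interval of 51976 bp. The upstream site had 2.67 and 2.76 in replicates 2 and 3 and the internal one 2.25 and 3.12. Pfkfb1, the liver and muscle form, had no promoter peak, and the 2 peaks of its locus in replicate 2 lay at the Apex2 promoter. The peak at chrX:150588101-150588320, with 1.07, also covered the 5′ end of the Pfkfb1 gene record, 1692 bp before its first coding start. The order Pfkfb2, Pfkfb4, Pfkfb3 held in both libraries.

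The aldolases cleave the 6-carbon sugar. Aldoa, the muscle and general form, had 6.01 in replicate 2 and 4.79 in replicate 3. Aldoc, the brain form, was the 1 restricted isozyme with a promoter peak, at chr11:78322961-78323180, with 1.91 and 2.39. No other protein-coding start site shared that peak, which held 2 footprints in each library, and its percentiles of 25.4 and 13.6 were low. A stronger peak 4191 bp downstream of the Aldoc start lay at the promoter of Pigs, with 3.72 and 6.10. Tpi1, triosephosphate isomerase, stood apart among the broad enzymes with 1.38 in replicate 2 and no peak of either list in replicate 3, although replicate 2 had 5 footprints there.

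The enzymes of the payoff steps make ATP and pyruvate. Gapdh had 7.10 and 7.0 in replicates 2 and 3, and a further region, in coding sequence near the end of the gene, had 2.29 and 3.25. Pgam1, the general phosphoglycerate mutase, had the highest mean percentile of all members, 87.5, with 8.33 and 8.04. Pgk1, phosphoglycerate kinase, had 4.16 and 2.62. Eno1, the general enolase, had 4.09 and 5.92, and Pkm, which encodes the muscle and proliferating-cell forms of pyruvate kinase, had 6.01 and 5.92. A further Pkm site in the first part of the gene, at chr9:59659841-59660000 in an intron, was in both libraries with 2.52 and 1.90.

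Their tissue-restricted counterparts had no stricter promoter peak in either library. These were Gapdhs (sperm), Pgam2 (muscle), Eno2 (neuron), Eno3 (muscle) and Pklr (liver and red cell). The authors' lists of false discovery rates, which run up to 0.05, held no position in the promoters of Gapdhs, Pgam2, Eno2 and Pklr, nor in those of Hk3, Ldhc and Pfkfb1. No listed position was the state of 44.6% of all protein-coding genes. Eno3 had listed positions over 49 bp in replicate 2, with a smallest false discovery rate of 0.00115, and a permissive peak of 0.768. Some of these loci held peaks outside the promoter. The Eno3 locus held 11 regions, none in its own promoter, and 10 of them lay at promoters or in an intron of Rnf167, Slc25a11, Pfn1 and Spag7. Gapdhs had the Tmem147 promoter within its flank, with 4.77 and 5.10. A site 10009 bp downstream of the Eno2 start, between genes, had 4.58 and 5.38. The loci of Pgam2, Pklr and Ldhc, each the gene with 10 kb either side, held no stricter peak at all. The other 6 of 9 restricted loci (66.7%) held a peak in replicate 2, close to the 67.5% of all genes. A region in both libraries was present at 4 restricted loci (44.4%), against 56.3% of all genes.

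Lactate dehydrogenase and its neighbours close the pathway. Ldha, the form that favours lactate, had 3.14 and 3.07 in replicates 2 and 3. Ldhb, the heart form, was lower in both libraries, with 1.79 and 1.36, and Ldhc, the testis form next to Ldha, had no peak. Slc16a1, the general lactate transporter MCT1, had 4.42 and 5.65. Slc16a3 encodes MCT4, the exporter of strongly glycolytic cells, and had no stricter promoter peak. In replicate 2 the permissive list held a peak of 0.537 there, with 4 footprints and a smallest false discovery rate of 0.00482, and replicate 3 listed no position. Pdk1, the kinase that shuts pyruvate dehydrogenase, had 8.77 and 7.27, the second highest mean percentile, 85.4. Its substrate Pdha1, the catalytic subunit gene on the X chromosome, had 2.26 and 1.67.

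The 3 members on the X chromosome, which male cells carry in a single copy, were Pgk1, Pdha1 and Pfkfb1. Pgk1 had percentiles of 55.2 in replicate 2 and 17.2 in replicate 3. Pdha1 had 30.3 and 4.56. A lower percentile in replicate 3 was not particular to them: 19 of the 21 members with a promoter peak in both libraries had one, all but Eno1 and Slc16a1. The autosomal Pfkfb4, for example, had 75.2 in replicate 2 and 48.2 in replicate 3. Percentiles ranked 11019 genes in replicate 2, of which 2102 had no stricter promoter peak in replicate 3, and 8924 in replicate 3. The 2 scales therefore differ, and the share of all genes with a lower percentile in replicate 3 was not counted. The part of copy number in these values was not tested.

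Several members were open at an internal start site and not at the 5′ end of the gene record. When only that 5′ end was used, 17 members had a promoter peak in both libraries, against 38.8% of all genes, and Aldoa, Hk1, Ldha and Pfkfb2 were the ones that left. Hk1 had 4 annotated coding start sites. The first 3 had no peak within 1 kb, and the last, 39366 bp inside the gene, carried the 8.98 and 6.10. Aldoa had 4 start sites, of which the 2 at 9854 and 9967 bp from the 5′ end shared the peak. Pfkfb2 had 5, and the ones at 13475 and 13519 bp shared its peak. At Ldha the main peak lay at the start sites 4364 and 4366 bp inside the record, and weaker peaks of 0.619 and 0.903, in replicate 2 alone, accompanied the later starts.

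**Figure D3:**
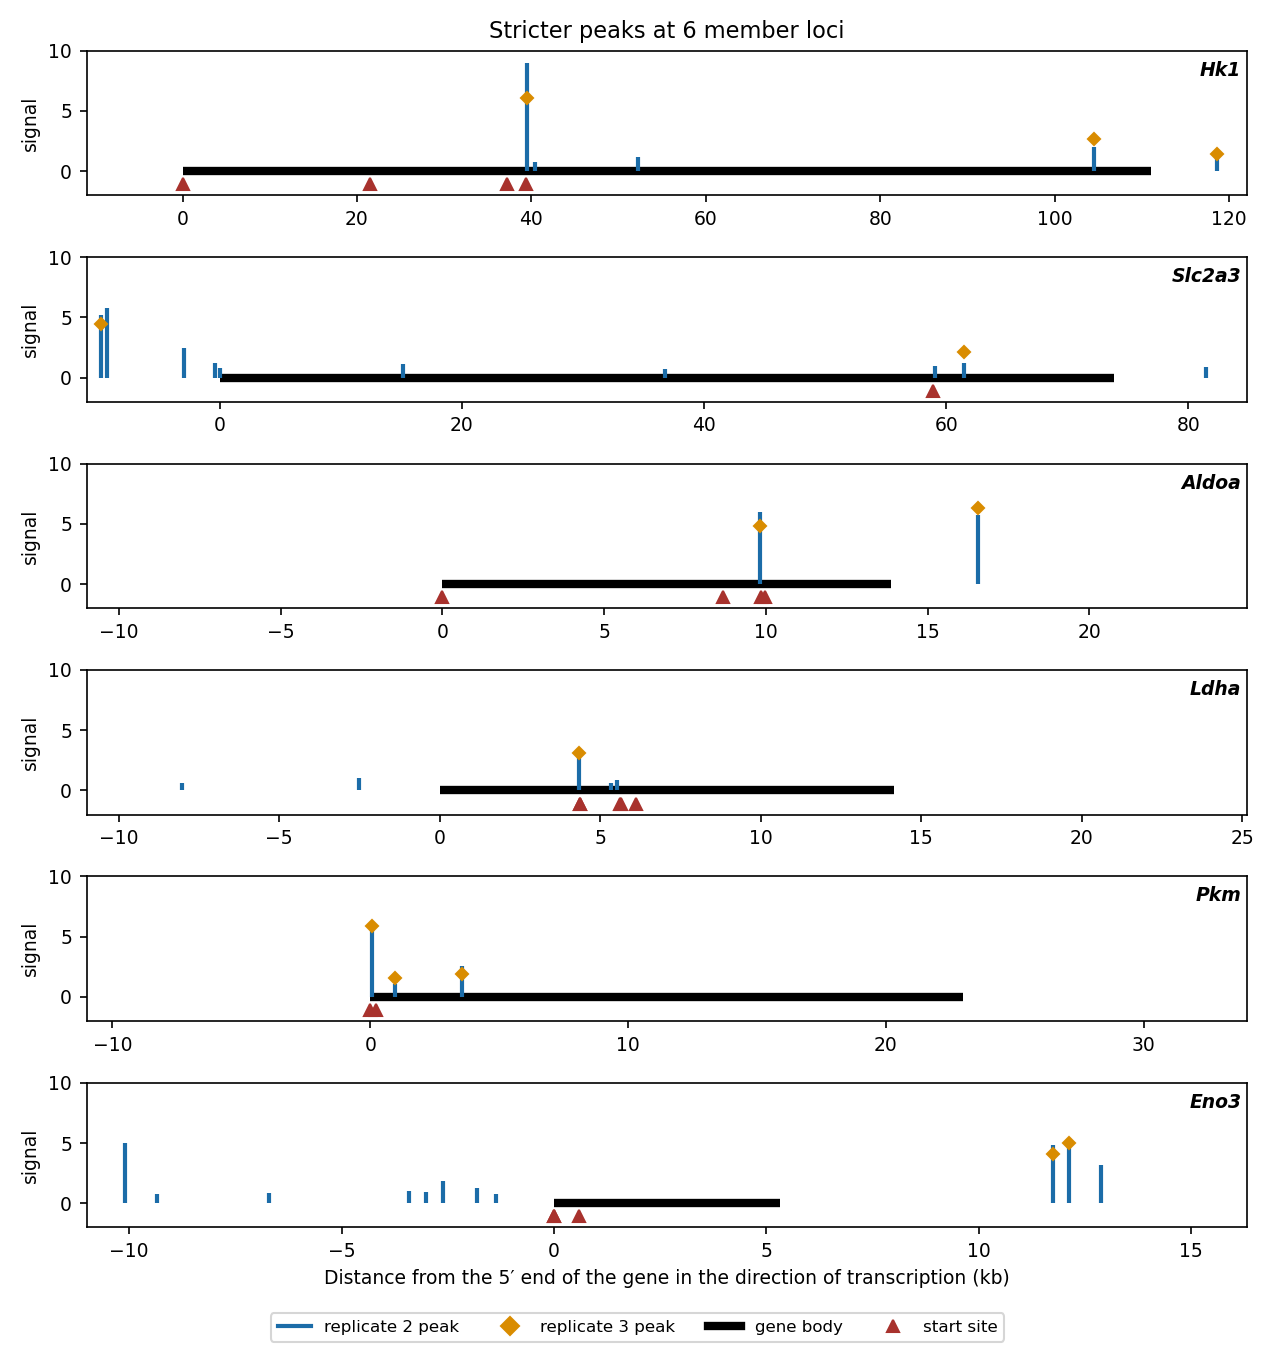
Stricter peaks at 6 member loci, with the distance from the 5′ end of the gene (horizontal axis, kb, in the direction of transcription) and peak signal (vertical axis, authors' units) in replicate 2 (bars) and replicate 3 (diamonds). Black bars are gene bodies and triangles protein-coding start sites. At Hk1 the tall peak stands at the last of 4 start sites, 39366 bp inside the gene, and at Eno3 all peaks stand outside the gene.

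Across the 33 loci there were 109 distinct stricter regions, of which 46 were in both libraries, 62 in replicate 2 alone and 1 in replicate 3 alone. The stricter list was longer in replicate 2 (38223 peaks) than in replicate 3 (17061). The split over all regions of the genome is not given, so this one is not particular to the members. Own promoters held 43 regions, 24 of them in both libraries. Promoters of other genes held 20, with 8 in both, introns of the member itself 22, with 6 in both, and stretches between genes 17, with 5 in both. At least 1 region in both libraries was present for 25 members (75.8%), against 56.3% of all genes. Without replicate 3 the count of regions was 108. The 6 intronic regions in both libraries were the Slc2a3 intron (1.19 and 2.12), the far Hk1 intron (2.02 and 2.67), a Pfkp intron (3.27 and 3.43), the Pkm intron above, and a pair in Pfkfb4 introns (1.17 and 2.57, then 1.54 and 2.44).

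The signals of the members were close between the libraries, with exceptions. Over the 21 members with a promoter peak in both libraries the median signal averaged 4.47 ± 0.0709 (SD, n = 2 libraries), from 4.42 in replicate 2 and 4.52 in replicate 3. The ratio of replicate 3 to replicate 2 had a median of 0.965 and ran from 0.629 at Pgk1 to 2.00 at Hk2. Over the 8917 genes open in both, the median was 1.03 and the range 0.701 to 1.61, leaving out the lowest and highest 5%. At Hk2 and Pfkfb3 the strongest peaks of the libraries lay at different sites, so their ratios do not compare 1 site. The next highest ratio after Hk2 was 1.45, at Eno1. For 7 of the 21 members the percentiles lay more than 20 points apart, the largest gap being 38.1 points at Pgk1. These gaps rest on rankings of different gene sets, and the share over all genes was not counted. The values of Slc2a1, Eno1 and Slc16a1 overlapped between libraries, so their order is not resolved. Gapdh lay above Pkm in both libraries, by more than either gene moved. Pgam1, at 8.04 or more, and Ldha, at 3.14 or less, were likewise apart.

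**Figure D4:**
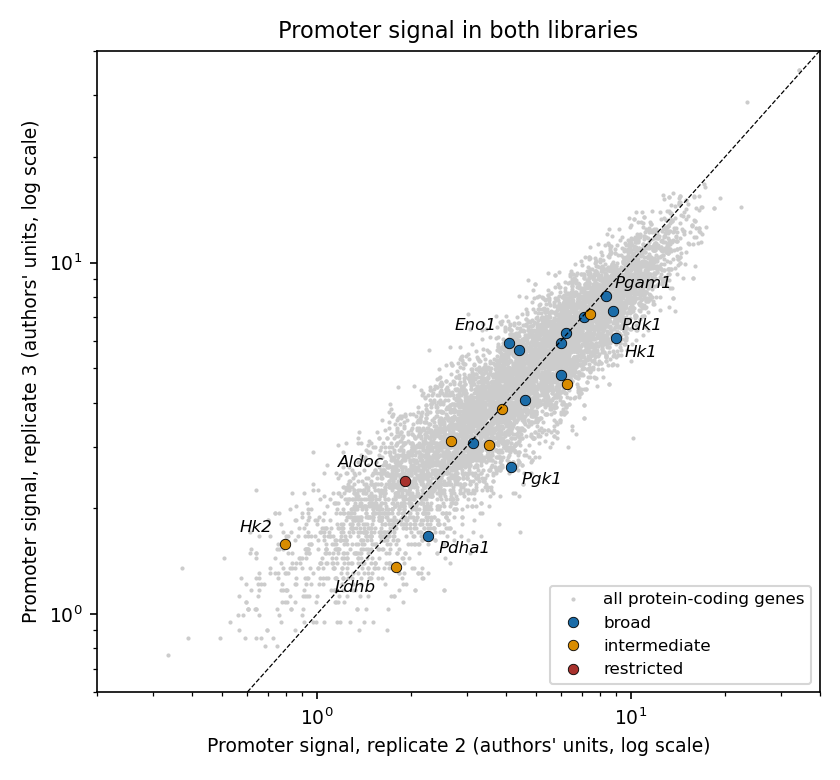
Promoter signal in replicate 2 (horizontal axis) and replicate 3 (vertical axis), both in the authors' units on log scales, for the 8917 protein-coding genes open at the promoter in each library (grey) and the 21 members among them (colours by class). The dashed line marks equal values. Hk2, whose peaks in the libraries did not overlap, lies above it at 0.791 and 1.58, and Pgk1 below it at 4.16 and 2.62.

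Promoter footprints followed the same classes. At least 1 was called for 25 members in replicate 2, against 52.8% of all genes, and for 17 in replicate 3, against 38.3%. In replicate 2 the median was 7 per promoter in broad, 5 in intermediate and 0 in restricted isozymes, and 2 in all genes. In replicate 3 the medians were 2, 2 and 0, and 0 in all genes. Pfkfb3, with 16, and Pkm, with 14, had the most in replicate 2, and Pdk1, with 6, the most in replicate 3. Counts and medians pool the windows of all start sites of a gene. They therefore cover more sequence where start sites lie apart, such as the 4 of Pfkfb3. Aldoc was the 1 restricted isozyme with a promoter footprint in either library.

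The classes also differed in promoter sequence. The ratio of observed to expected CpG within 500 bp of a start site, highest over a gene's start sites, had a median of 0.726 in broad, 0.569 in intermediate and 0.228 in restricted isozymes. It reached 0.6 in 12 of 15 broad, 4 of 9 intermediate and 1 of 9 restricted isozymes. Of all protein-coding genes, those open in both libraries made up 70.2% at or above that ratio and 10.7% below it. Among members it was 14 of 17 (82.4%) at or above it and 7 of 16 (43.8%) below it. The 7 were Hk1, Pfkm, Pfkp, Aldoc, Gapdh, Ldhb and Pfkfb2. Eno2 had a ratio of 0.716 and Slc16a3 of 0.711 with no peak in either library. The part of CpG content in the contrast of classes was not tested.

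The stretches behind the open promoters are shown for the members of highest mean percentile, Pgam1, Pdk1 and Pfkfb2, because they stand highest among open promoters over both libraries, and for Ldha, Pgk1 and Slc2a1, picked after their values were seen as textbook targets of hypoxia signalling. Each is the longest stretch outside coding-transcript exons of the 300 bases around the replicate 2 peak, 5′ to 3′ on the gene's strand, from the RefSeq sequence of GRCm38.p6. Capitals mark bases in replicate 2 footprints.
Pgam1, chr19:41911701-41911922, plus strand: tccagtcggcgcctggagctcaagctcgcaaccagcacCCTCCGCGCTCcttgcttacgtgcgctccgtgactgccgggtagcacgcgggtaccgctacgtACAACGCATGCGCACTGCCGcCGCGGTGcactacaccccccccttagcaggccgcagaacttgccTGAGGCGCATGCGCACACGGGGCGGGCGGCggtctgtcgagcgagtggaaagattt
Pdk1, chr2:71873051-71873223, plus strand: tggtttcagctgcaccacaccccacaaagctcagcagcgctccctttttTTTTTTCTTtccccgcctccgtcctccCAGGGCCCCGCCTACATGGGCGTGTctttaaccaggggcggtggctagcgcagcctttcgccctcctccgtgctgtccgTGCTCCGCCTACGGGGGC
Pfkfb2, chr1:130715779-130716060, minus strand: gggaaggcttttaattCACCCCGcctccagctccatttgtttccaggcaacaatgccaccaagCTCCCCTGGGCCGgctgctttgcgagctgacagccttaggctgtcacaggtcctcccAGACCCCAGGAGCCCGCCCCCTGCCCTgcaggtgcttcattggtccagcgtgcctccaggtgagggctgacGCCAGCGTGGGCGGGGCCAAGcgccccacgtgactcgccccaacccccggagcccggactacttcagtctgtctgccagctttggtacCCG
Ldha, chr7:46845661-46845838, plus strand: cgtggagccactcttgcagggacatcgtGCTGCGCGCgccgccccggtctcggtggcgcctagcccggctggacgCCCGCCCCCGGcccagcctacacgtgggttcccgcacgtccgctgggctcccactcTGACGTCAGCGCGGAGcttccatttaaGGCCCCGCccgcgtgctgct
Pgk1, chrX:106186821-106187099, plus strand: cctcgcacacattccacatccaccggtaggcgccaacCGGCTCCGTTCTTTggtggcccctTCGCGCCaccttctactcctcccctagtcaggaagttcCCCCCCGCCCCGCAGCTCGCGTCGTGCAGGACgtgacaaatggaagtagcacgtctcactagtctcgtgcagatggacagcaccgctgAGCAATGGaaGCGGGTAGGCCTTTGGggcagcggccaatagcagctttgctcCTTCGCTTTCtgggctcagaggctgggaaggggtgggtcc
Slc2a1, chr4:119108611-119108710, plus strand: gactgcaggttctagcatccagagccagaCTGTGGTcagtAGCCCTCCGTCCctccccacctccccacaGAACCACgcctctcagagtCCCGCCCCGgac
Gapdh, next in mean percentile, and Aldoc are left out because only 27 and 47 bases around their peaks lie outside exons, with no footprint in them.

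Footprints in these stretches covered 68 of 222 bases at Pgam1 and 44 of 178 at Ldha. The capitals of Pgam1 include the NRF1 motif 47 bp upstream of the start, a palindrome bound by NRF1, an activator of mitochondrial and metabolic genes, and both libraries had a footprint on it. Those of Ldha include TGACGTCA, the CREB/ATF site, in replicate 2. Such footprints were common on these motifs. Over the 8917 genes open in both libraries, 100% of NRF1 matches touched a footprint of replicate 2 and 64.4% one of replicate 3. Of their TGACGTCA matches, 88.6% touched a footprint of replicate 2. The Ldha stretch also holds CACGTG 80 bp upstream of the start, where ACGTG matches on both strands, and a further ACGTG 66 bp upstream, and no footprint of either library touched them. At Pgk1 the ACGTG 148 bp upstream was touched by a footprint of replicate 2 and the one 128 bp upstream was not. The Slc2a1 stretch shown holds no ACGTG. The match around its peak lay at the start site and was touched by a footprint of replicate 3 but not of replicate 2.

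Matches were counted for 10 short motifs on either strand in the 300 bases around the strongest replicate 2 promoter peak, for the 21 members with a peak in both libraries and for all 8917 such genes. ACGTG, the core of the hypoxia response element bound by HIF, was found in 14 of 21 member windows (66.7%), against 29.6% of all. The 14 include the Pfkm window, at the peak closest to the Senp1 start. They also include the Hk2 window, at a replicate 2 peak that replicate 3 did not share. ACGTG lies inside the E-box CACGTG, which itself was in 3 (14.3%), against 11.5%. In RefSeq promoters of 300 bases, which were found for 32 of 33 members, ACGTG was in 39.6% of 53 member promoters, against 19.6% of 32851. Each strand was counted, so a CACGTG gives a pair of matches. Hk2 held 6 matches, Ldha 3, and Hk1, Pgk1, Pfkfb2 and Pdk1 held 2 each. Of the matches, 6 of 25 (24.0%) in members, against 29.7% of all, touched a footprint of replicate 2, and 2 of 25 (8.0%), against 11.0%, touched one of replicate 3. The Pfkfb3 match, 90 bp downstream of a start site, was the only member match touched in both libraries.

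The other motifs differed from the background by fewer percentage points, and those found in few windows rest on 0 to 3 members. GGGCGG, bound by SP and KLF factors, was in 18 of 21 member windows (85.7%), against 74.8% of all. Its matches touched a replicate 2 footprint in 36 of 45 cases (80.0%), against 60.9%, while in replicate 3 the shares were 24.4% and 23.5%. CCAAT, the NFY motif, was in 47.6%, against 40.3%, and TGTGGT, the RUNX motif, in 14.3%, against 10.1%. CCGGAAG, the ETS motif, was in 2 windows (9.52%), those of Pfkm and Aldoc, against 25.0%. The Pfkm window is the one closest to the Senp1 start. AAGATGGC, a YY1 motif, was in none, against 7.60%. TATAAA was in 2 (9.52%), those of Slc2a1 and Gapdh, against 3.39%, and lay 65 and 141 bp downstream of the annotated start. TGACGTCA was in 4.76%, against 5.06%, and the NRF1 motif in 4.76%, against 3.18%. In the RefSeq promoters some of these contrasts turned round: TATAAA was in 7.55% of member promoters, against 13.6% of all, and CCAAT in 34.0%, against 37.4%. A match is a string of letters, not a bound site.

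**Figure D5:**
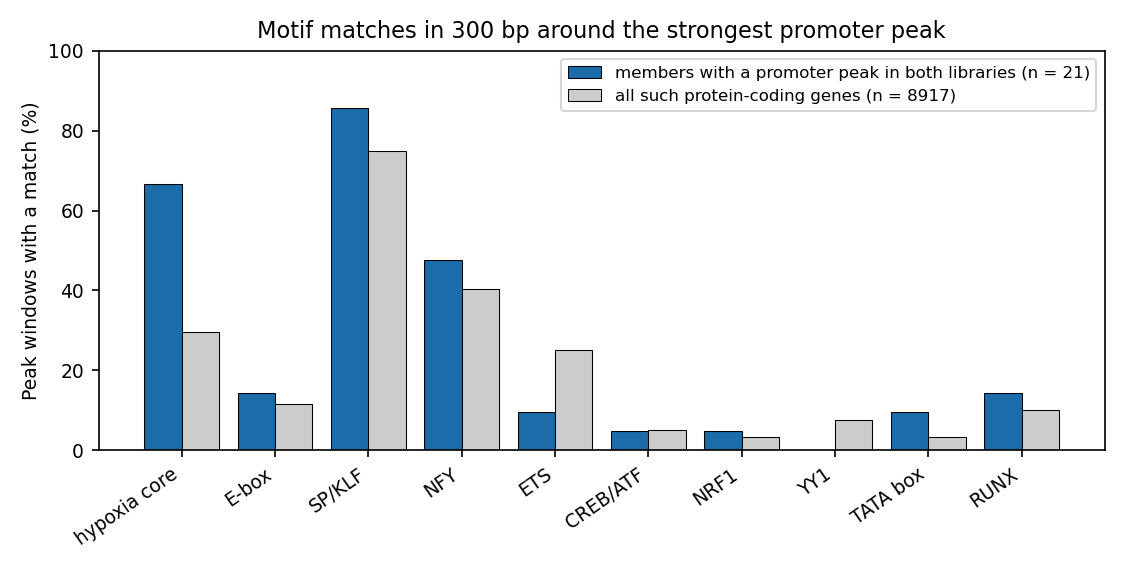
Share of 300 bp windows around the strongest promoter peak (vertical axis, percent) that hold each of 10 motifs, for the 21 members and the 8917 protein-coding genes that were open in both libraries. The hypoxia core stands at 66.7% and 29.6%, and ETS at 9.52% and 25.0%.

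Of 29 further genes of glucose and pyruvate metabolism, 16 (55.2%) had a promoter peak in both libraries, against 40.9% of all genes, and 2, Slc16a7 and Pck2, had one in replicate 2 alone. The highest were Mpc2, a subunit of the mitochondrial pyruvate carrier, with 15.0 in each library, and Pdhx, a component of pyruvate dehydrogenase, with 12.9 and 10.8 in replicates 2 and 3. The Mpc2 peak was shared with the Dcaf6 promoter and that of Pdhx with Apip. Adpgk, an ADP-dependent glucokinase, had 8.04 and 8.49, and Bpgm, which makes 2,3-bisphosphoglycerate, had 8.61 and 7.05. Slc2a2, a transporter of liver, Pgk2 and Pdha2, forms of testis, and Fbp2, a form of muscle, had none in either library. Slc2a4, the transporter of muscle and fat, had a promoter peak in both libraries, with 3.41 and 3.66. Eno4, an enolase known from sperm, also had one in both libraries, with 5.19 and 5.65. Slc2a4 and Eno4 thus went against the contrast seen among the restricted members.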

How the data were processed

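DNase-seq files of 2 libraries, all on mm10 per the labels, were used. Per the deposited notes, the authors made peaks, false discovery rates and footprints from each library's own alignments; the sources used here name no aligner, caller or version. The signal of each peak (column 7) is the authors' deposited value, of unstated scaling. The deposited q-value lists give a false discovery rate per stretch of positions. Footprints carry a constant, so only intervals were used. The shorter peak list of each library is called stricter, the longer permissive. Depth is unknown, so no counting interval is given.

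Genes were the protein-coding symbols of the GENCODE M21 basic set on nuclear chromosomes; the 2 gene records of Aldoa were joined. Overlap meant 1 bp or more, and a locus was the gene with 10 kb either side. Overlapping stricter peaks of the libraries formed 1 region. With 1 group there was no comparison between groups and no test. The members, classes and lists were chosen with earlier results of these data known. All members are described, and of the 29 other pathway genes the 4 of highest mean percentile and 4 tissue-restricted ones, while some others are not reported here; Slc16a7, Pck2, Slc2a4 and Eno4 were named after their values were seen. Alternatives changed the peak list, window, overlap, number of peaks, start site, flank, class and libraries. Overlap functions were checked on simulated intervals. Python 3.11.15, numpy 2.4.6, pandas 2.3.3, pysam 0.24.0, bedtools 2.31.1, samtools 1.23.1 and matplotlib 3.10.9 were used.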

Additional observations from a re-analysis of the deposited data

How the results depend on the processing

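The count of members with a promoter peak in both libraries was 21 and lay between 17 and 24 under 8 alternatives; leaving out each library in turn gave 21 to 24. Leaving out a library turns a count over both into the count of the other alone, so it cannot lower the count. By class, leaving out a library gave 13 to 15 broad, 7 to 8 intermediate and 1 to 1 restricted isozymes. With intermediate isozymes counted as broad the count was 20 of the pooled class (83.3%), and counted as restricted it was 8 (44.4%), by construction of the larger pools. Regions in both libraries numbered 46; the gene body alone gave 30, a 50 kb flank 103, and leaving out a library 47 to 108, since fewer or more positions or peaks were admitted. The median promoter signal of 4.47 became 5.68 when the peaks of a promoter were summed. Members with a promoter footprint in both libraries numbered 17, and 17 to 25 with a library left out. Of 40 alternatives, 34 stayed within 1.5 times the main count or within 1 SD. The 40 include those that left out a library and so could not lower a count. The shorter lists of replicate 3 and the unknown depth limit every statement of absence. No paired analysis was possible because there was a single group and no test.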
